A study of Homo sapiens with 12 samples.

Results

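The assay hsa-miR-720 reads a small RNA that was first listed as a miRNA and is now taken as a fragment of a threonine tRNA. It was 1 miRNA assay beside 371 others on a miScript miRNA PCR Array, and it was chosen by its measured values in these same arrays: a Ct among the lowest of the array and a far lower level after 5 days of lenalidomide. Its levels and its falls are therefore descriptions, and no test was made of them. The study measured OCI-My5 cells, an established line of multiple myeloma, a cancer of plasma cells, in order to compare miRNA levels when CRBN, AGO2 or lenalidomide exposure changes. My5.LV cells are OCI-My5 infected with the empty lentiviral vector, and they have a low level of CRBN and resist IMiDs, the drug class of lenalidomide. My5.CRBN cells carry a lentiviral cDNA for His-tagged CRBN, have a high level of it and are sensitive to these drugs.

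Each line gave 6 arrays, 1 for each condition, and both lines had the same conditions. The un-treated arrays are My5.LV and My5.CRBN. In the sh72 arrays (My5.LV.sh72, My5.CRBN.sh72) AGO2, also termed EIF2C2, was silenced with a lentiviral shRNA. In the AGO2 arrays (My5.LV.AGO2, My5.CRBN.AGO2) a lentiviral cDNA for AGO2 with an epitope tag was added, from a vector with puromycin resistance. The study describes selection with puromycin for the shRNA as well as the cDNA, and 3 days of treatment with either. The Len72h and Len120h arrays had 10 µM lenalidomide for 72 or 120 hours, that is 3 or 5 days, and the AGO2.Len72h arrays had both the AGO2 cDNA and 72 hours of the drug. Each condition rests on 1 array of a bulk population, so no difference has a replicate check and no p-value is given. A lower level per cell and fewer cells holding the RNA cannot be told apart. No array is labelled as given the vehicle alone or as kept 5 days without the drug. The labels also do not give the run of each array. Time with the drug, days in culture and a run shared by the 5-day arrays thus cannot be told apart.

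Transfer RNAs carry amino acids to the ribosome, and many cells also hold shorter pieces cut from them. A true miRNA is made another way: DROSHA and DICER1 cut it from a hairpin, and an Argonaute protein such as AGO2 then holds it and pairs it, through its seed, with mRNAs. Because miR-720 does not come from such a hairpin, it gives a reading on the same plate of a small RNA outside the usual route of miRNA making. Whether its assay reads the fragment alone or also the full-length tRNA was not tested. RefSeq lists 20 threonine tRNA genes on 7 chromosomes of GRCh38.p14, each 72 to 74 bases long, and the gene or genes behind the signal cannot be told apart here.

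For comparison, the sequences of true miRNAs that come back in the results are given first, 5′ to 3′, with the seed (bases 2 to 8) in capitals, from RefSeq GRCh38.p14. The first pair had the un-treated Ct nearest to that of miR-720, and the next 4 are from the 5 assays whose pattern over the 12 arrays was most like it. The fifth assay of that kind, miR-639, is named only, as is miR-720. miR-142-3p lies at chr17:58331245-58331267 on the minus strand and miR-16-5p has copies at chr13:50049027-50049048 (minus) and chr3:160404754-160404775 (plus). miR-302c-3p lies at chr4:112648366-112648388 (minus), miR-708-5p at chr11:79402077-79402099 (minus), miR-379-5p at chr14:101022071-101022091 (plus) and miR-643 at chr19:52281857-52281878 (plus).
miR-142-3p: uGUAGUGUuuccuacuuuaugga
miR-16-5p: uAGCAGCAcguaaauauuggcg
miR-302c-3p: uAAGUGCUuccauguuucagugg
miR-708-5p: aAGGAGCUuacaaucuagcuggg
miR-379-5p: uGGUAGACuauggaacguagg
miR-643: aCUUGUAUgcuagcucagguag
The 4 miRNAs of like pattern shared no seed with each other, and they lie on 4 different chromosomes. Their GC content was 43.5 to 47.8%, and that of 19 miRNAs of like Ct was 31.8 to 54.5%, with a median of 40.9%.

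The level of miR-720 is given as the mean Ct of 6 small-RNA control wells (SNORD61, SNORD68, SNORD72, SNORD95, SNORD96A and RNU6-2) minus the Ct of miR-720 on the same array. A Ct counts the PCR cycles a well needs to cross the detection threshold, so this is a log2 scale on which 1 unit is a doubling. In My5.LV cells the level was 3.23 un-treated, 3.89 with sh72, 3.40 with AGO2 cDNA, 3.41 after 3 days of lenalidomide, 3.58 with both, and -0.54 after 5 days of lenalidomide. The My5.CRBN cells had levels of 4.42, 2.75, 2.64, 3.98, 3.45 and -1.40 in the same order. On 10 arrays the level thus lay between 2.64 and 4.42, with a median of 3.43, and on both 5-day arrays it lay far below all of them. The lowest of the 10 stood 3.18 above the higher of the 5-day arrays, whereas the 10 spanned 1.78 among themselves. In the Ct as deposited, without the control wells, this gap was 0.87 and the 10 spanned 4.14. With the positive PCR control wells in place of the 6, the gap was 2.68 and the span 2.10. As a fold of the control wells, miR-720 ran from 6.22 to 21.3 on the 10 arrays and was 0.69 and 0.38 on the 5-day arrays of My5.LV and My5.CRBN.

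**Figure D1:**
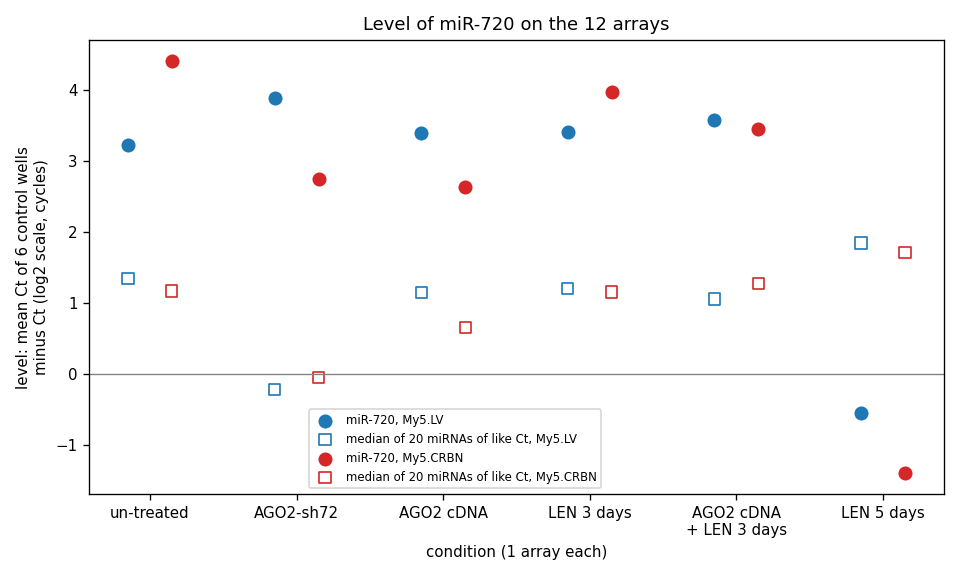
Level of miR-720 (filled circles) on the 12 arrays, as the mean Ct of 6 control wells minus its Ct, with the median of 20 miRNAs of like Ct (open squares); blue is My5.LV and red is My5.CRBN, 1 array per point. miR-720 lies between 2.64 and 4.42 on 10 arrays and at -0.54 and -1.40 after 5 days of lenalidomide (LEN), where the squares are at their highest.

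In order of level, My5.CRBN stood highest, followed by My5.CRBN.Len72h and My5.LV.sh72. The SD of the 6 control wells between the same arrays is given beside each step as a description. It covers the spread of wells within a pair of arrays and not that between cultures, so it does not say whether conditions differ. The step from My5.CRBN to My5.CRBN.Len72h (0.43) was larger than that SD (0.22), and the step from there to My5.LV.sh72 (0.10) was not. The next step, down to My5.LV.AGO2.Len72h, was 0.31 against an SD of 0.25. The 5 arrays from My5.LV.AGO2.Len72h through My5.CRBN.AGO2.Len72h, My5.LV.Len72h and My5.LV.AGO2 to My5.LV followed each other in steps smaller than this SD. Below them came My5.CRBN.sh72, after a step of 0.48 against an SD of 0.35, and My5.CRBN.AGO2, which differed from it by 0.11. The step from My5.CRBN.AGO2 to My5.LV.Len120h was the largest of the order at 3.18 (SD 0.53), and My5.CRBN.Len120h was lower again by 0.85 (SD 0.43). The order of the 5-day arrays turns with the normalizer, since My5.CRBN.Len120h was higher by 0.74 with the positive PCR control and by 0.049 in the Ct as deposited.

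Among the assays of the array, miR-720 had the lowest or second lowest Ct on 9 of the 10 arrays without 5 days of lenalidomide and the fifth lowest on My5.CRBN.AGO2. Such an order is one of assays, not of molecules, since assays can amplify with different efficiency. Its mean Ct in un-treated cells was 16.6, next to miR-142-3p (16.7), a miRNA of blood cells, and to miR-16-5p, miR-20a-5p and miR-19a-3p (17.8, 17.8 and 18.0). With 5 days of lenalidomide it was in place 43 in My5.LV and place 53 in My5.CRBN.

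The Ct as deposited gives the parts of this change. In My5.LV the Ct of miR-720 was 16.92 un-treated, 17.09 with sh72, 17.74 with AGO2 cDNA, 16.96 after 3 days of lenalidomide, 15.14 with both and 20.15 after 5 days. In My5.CRBN it was 16.38, 17.69, 19.23, 15.09, 16.87 and 20.10. The mean of the control wells also moved between arrays, from 18.7 to 21.9, and the positive PCR control from 17.6 to 20.3, so part of the difference between raw Ct values is shared by the whole plate. With 5 days of the drug the directions were opposite: miR-720 came up later by 3.22 cycles in My5.LV and 3.72 cycles in My5.CRBN, and the control wells came up earlier by 0.55 and 2.09 cycles. Between paired wells of 1 assay, the root mean square difference over the 12 arrays was 0.187 cycles for the reverse transcription control. It was 0.383 for the positive PCR control, which lay furthest apart, by 0.839 cycles, on My5.LV.Len120h, and 1.43 (largest 2.38) for cel-miR-39, whose Ct is close to the cap. miR-720 itself has 1 well per array.

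**Figure D2:**
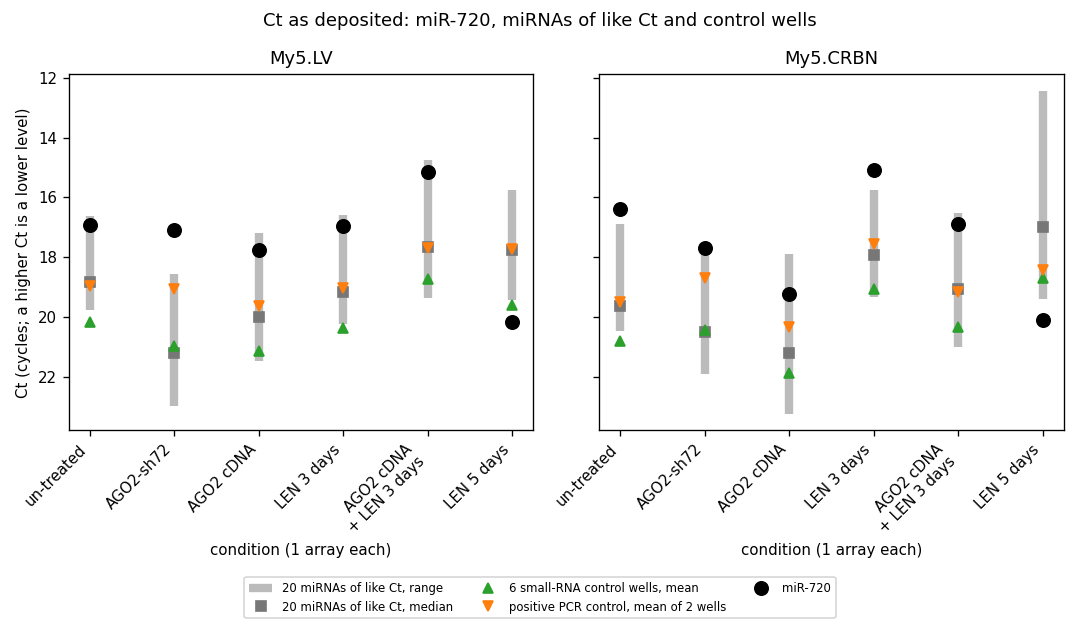
Ct as deposited (cycles, axis reversed so that higher levels are up) of miR-720 (black), of 20 miRNAs of like Ct (grey bar for the range, square for the median), of the mean of 6 small-RNA control wells (green) and of the positive PCR control (orange), 1 array per condition in My5.LV (left) and My5.CRBN (right). miR-720 sits above the median of the 20 on 10 arrays and below their whole range on both 5-day arrays.

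A comparison that needs no normalizer sets miR-720 against true miRNAs on the same plate. The 20 miRNA assays nearest to it in un-treated Ct, with assays of known non-canonical origin left out, include miR-142-3p, miR-16-5p, miR-195-5p, miR-21-5p, let-7a-5p, let-7f-5p and members of the miR-17 and miR-19 families. No assay had a lower un-treated mean Ct than miR-720, so all 20 lie on its later side. Their mean Ct was higher by 0.10 (miR-142-3p) to 3.32 (miR-150-5p) cycles. Several of them share a seed: miR-17-5p, miR-20a-5p, miR-20b-5p and miR-106b-5p, for example, all carry AAAGUGC. In My5.LV cells miR-720 came up 1.89 cycles before the median of the 20 un-treated, 4.10 with sh72, 2.25 with AGO2 cDNA, 2.20 after 3 days of lenalidomide and 2.52 with both. In My5.CRBN cells it led by 3.24, 2.80, 1.98, 2.82 and 2.17 cycles in the same order. On the 5-day arrays it came up 2.39 cycles after that median in My5.LV and 3.11 cycles after it in My5.CRBN. On the 10 other arrays from 0 to 4 of the 20 miRNAs had a lower Ct than miR-720, and on the 5-day arrays 20 of 20 had.

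Against un-treated cells, miR-720 after 5 days of lenalidomide was 13.7 fold lower in My5.LV (log2 fold change -3.78, control-well SD 0.41) and 56.2 fold lower in My5.CRBN (-5.81, SD 0.22). With each control well alone as normalizer the log2 fold change lay between -4.16 and -3.06 in My5.LV and between -6.12 and -5.55 in My5.CRBN. Of all miRNA assays, 14.2% fell short of the un-treated level by 3 fold or more in My5.LV and 13.4% in My5.CRBN, and miR-720 stood at place 7 from the lowest in the first and at place 1 in the second. With the positive PCR control as normalizer the values were -4.44 and -4.78, and with no normalizer they were -3.22 and -3.72.

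None of the 20 miRNAs of like Ct fell at least 3 fold with it. In My5.LV their log2 fold changes ran from -0.24 for miR-150-5p to 1.16 for miR-148a-3p, with a median of 0.54, and miR-720 minus this median was -4.32. In My5.CRBN they ran from -1.30 for miR-150-5p, a miRNA of mature lymphocytes, to 2.35 for miR-142-3p, with a median of -0.05, and miR-720 minus this median was -5.76. miR-142-3p was the only one of the 20 at least 3 fold higher, where 5.11% of all assays were. Over the 8 ways of normalizing, 0 of the 20 were at least 3 fold lower in either line, and in My5.CRBN 1 to 16 passed 3 fold upward. The median over all assays was -0.05 in My5.LV and -0.15 in My5.CRBN.

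Widening this to the 53 other assays with an un-treated mean Ct below 22 gave 0 at least 3 fold lower in My5.LV and 1 in the other line, miR-324-5p (-1.79), which was also the lowest of them in My5.LV (-1.15). With a limit of Ct 24, which takes in 76 other assays, 2 were lower in My5.LV and 4 in My5.CRBN, and the lowest was miR-191-3p, the minor strand of the miR-191 hairpin, at -2.97 and -5.54. With a limit of Ct 26 (120 other assays) 4 and 8 were lower. The lowest of them in My5.LV was miR-342-3p, which went from a Ct of 24.3 to the cap, so that its -11.29 is a bound. In My5.LV 6 assays were below miR-720: miR-342-3p and miR-155-5p (-4.35), both at the cap after 5 days, and miR-302c-3p (-5.51), an embryonic stem cell miRNA, miR-300 (-4.28), miR-431-5p (-4.03) and miR-643 (-3.80). miR-379-5p (-3.67) and miR-639 (-3.62) were next to it among the assays under the cap. In the CRBN-high line no assay was below miR-720, and the next ones under the cap were miR-191-3p (-5.54), miR-708-5p (-4.89), miR-300 (-4.61) and miR-302c-3p (-4.39).

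At 3 days the same dose had not moved miR-720 as far. It changed by 0.17 in My5.LV (control-well SD 0.18; -0.039 with no normalizer) and by -0.43 in My5.CRBN (SD 0.22; -0.79 with the global mean, 1.29 with no normalizer), while the median of the 20 miRNAs of like Ct changed by -0.17 and -0.33. Between 3 and 5 days, miR-720 was 15.5 fold lower in My5.LV (-3.95, SD 0.56) and 41.6 fold lower in My5.CRBN (-5.38, SD 0.30), beside 11.8% and 22% of all assays at least 3 fold lower. With no normalizer the values of miR-720 were -3.19 and -5.01. They were -4.47 and -4.15 with the positive PCR control, and -3.84 and -4.81 with the global mean. The 20 miRNAs of like Ct had medians of 0.67 and 0.47 in the same comparisons, and none was at least 3 fold lower. These comparisons share their 5-day arrays with those against un-treated cells, so they are not independent of them.

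**Figure D3:**
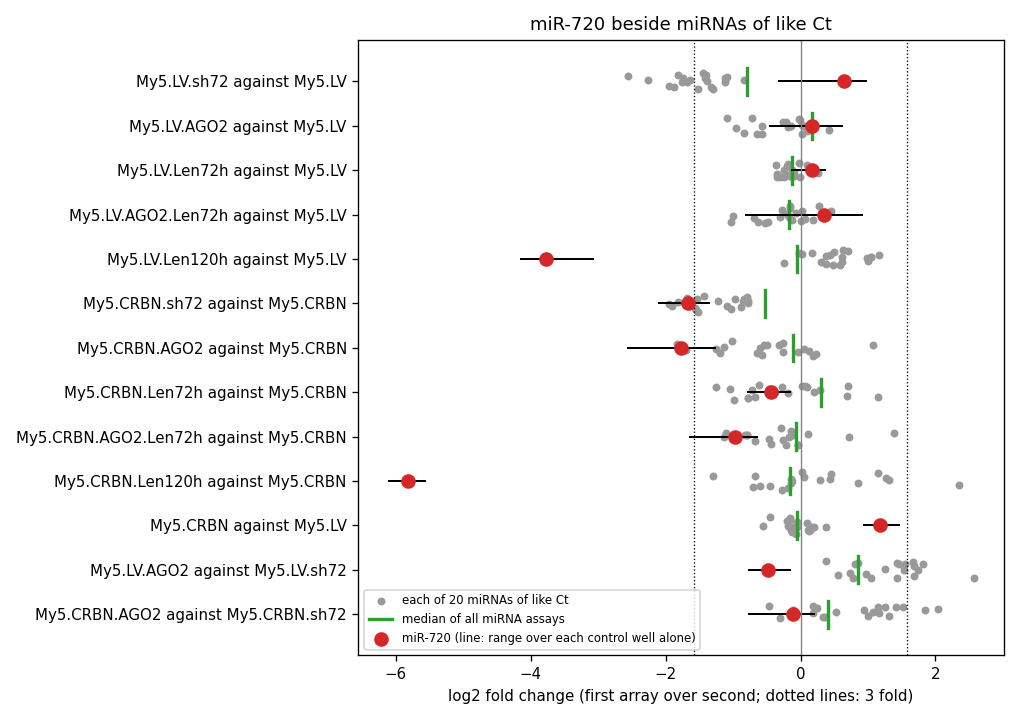
Log2 fold change of miR-720 (red; the black line is its range over each control well alone), of each of 20 miRNAs of like Ct (grey) and the median of all miRNA assays (green) in 13 comparisons of 1 array with 1 other; dotted lines mark 3 fold. miR-720 is far to the left of the grey points after 5 days of lenalidomide (-3.78 and -5.81), to the right of all of them in My5.LV.sh72 (0.65), and among them in My5.CRBN.sh72 (-1.66).

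AGO2 holds mature miRNAs, and the question here is whether miR-720 moved with them when AGO2 was silenced. In My5.LV.sh72 it did not: its log2 fold change against un-treated cells was 0.65 (control-well SD 0.51; -0.33 to 0.98 over single control wells), place 322 counted from the lowest of all assays. All 20 miRNAs of like Ct lay below it, from -2.55 for miR-103a-3p to -0.83 for miR-21-5p, with a median of -1.48. At least 3 fold lower were 9 of them (miR-106b-5p, miR-19b-3p, let-7f-5p, miR-17-5p, let-7a-5p, miR-148a-3p, miR-26b-5p, miR-18a-5p and miR-103a-3p), beside 23.7% of all assays. Against the same un-treated array, 19 of the 20 also lay below miR-720 in each of My5.LV.AGO2, My5.LV.Len72h and My5.LV.AGO2.Len72h. The distance of miR-720 from the median of the 20 was 2.13 with sh72 and 0.33, 0.35 and 0.51 on those arrays. The direction of miR-720 alone depends on the normalizer (-0.33 with RNU6, 1.52 with the global mean of miRNAs), whereas its order against the 20 is the same by construction, since a normalizer shifts all assays of a comparison alike. The counts past 3 fold rest on it too: over the 8 ways of normalizing, 1 (miR-103a-3p, with the global mean) to 20 of the 20 were lower, and of all assays 12 with the global mean and 201 with RNU6, against 88.

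In My5.CRBN.sh72 miR-720 lay among the miRNAs of like Ct. It was 3.17 fold lower than un-treated (-1.66, control-well SD 0.30), close to the limit of 3 fold, which it passed with 3 of the 6 control wells taken alone (-2.12 to -1.34). With the 5 SNORD wells as normalizer it was at -1.57 and with the global mean at -1.12, both short of 3 fold. The 20 miRNAs of like Ct had a median of -1.33, from -1.95 for miR-106b-5p to -0.78 for miR-21-5p, of which 4 lay below miR-720 and 16 above. Of them 5 passed 3 fold downward (miR-19a-3p, miR-106b-5p, miR-19b-3p, miR-18a-5p and miR-103a-3p), beside 12.9% of all assays. This count ran from 0 to 11 over the 8 ways of normalizing, and that of all assays was 8 with the global mean and 104 with RNU6, against 48. Under sh72 miR-720 thus had values on opposite sides of 0 in the lines, with 1 array each and no test of the difference, and with RNU6 or the positive PCR control as normalizer, or none, both were below 0.

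With AGO2 cDNA, miR-720 changed by 0.17 in My5.LV (control-well SD 0.41), equal to the median of all assays (0.17). This value was below 0 under 5 of 8 ways of normalizing (-0.47 with RNU6, -0.82 with none). In My5.CRBN.AGO2 it was 3.43 fold lower than un-treated (-1.78, SD 0.56; -2.58 to -1.26 over single control wells), place 17 from the lowest, beside 6.18% of all assays at least 3 fold lower. With the global mean as normalizer it was at -1.54, short of 3 fold. Of the 20 miRNAs of like Ct, 19 lay above it and 2 were at least 3 fold lower, let-7f-5p (-1.83) and miR-26b-5p (-1.69), while miR-21-5p was at 1.07. From 1 to 10 of them were at least 3 fold lower over the 8 ways of normalizing, and of all assays 14 were with the global mean, against 23. The array of My5.CRBN.AGO2 had the highest control-well Ct of the 12 (21.86) and the highest Ct of the positive PCR control (20.32), whose part in this value was not tested.

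Setting the AGO2 arrays against the sh72 arrays compares added with silenced AGO2 in each line. In My5.LV miR-720 changed by -0.48 (control-well SD 0.23), and all 20 miRNAs of like Ct lay above it, from 0.37 to 2.58 with a median of 1.43. At least 3 fold higher were 6 of them (miR-106b-5p, let-7f-5p, miR-17-5p, let-7a-5p, miR-18a-5p and miR-103a-3p), beside 22.3% of all assays. In My5.CRBN miR-720 changed by -0.11 (SD 0.39), while the 20 had a median of 0.97, from -0.47 to 2.03, and 2 were at least 3 fold higher (miR-21-5p at 1.85 and miR-103a-3p at 2.03), beside 10.2% of all assays. Over the 8 ways of normalizing, the count of the 20 past 3 fold upward was 0 to 12 for My5.LV and 0 to 5 for My5.CRBN. The change of miR-720 itself ran from -1.53 (global mean) to -0.085 (positive PCR control) in My5.LV. In My5.CRBN it ran from -1.53 (none) to 0.19 (reverse transcription control) and was below 0 under 5 of the 8, so its direction depends on the normalizer. These comparisons use the same sh72 and AGO2 arrays as the ones above.

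When AGO2 cDNA and 3 days of lenalidomide were combined, miR-720 stayed within 3 fold of its un-treated level in both lines. It changed by 0.35 in My5.LV.AGO2.Len72h (control-well SD 0.67) and by -0.96 in My5.CRBN.AGO2.Len72h (SD 0.37), where 18 of the 20 miRNAs of like Ct lay above it. With RNU6 alone as normalizer the value in My5.CRBN.AGO2.Len72h was -1.65, past 3 fold, and with no normalizer that in My5.LV.AGO2.Len72h was 1.78. Against 3 days of lenalidomide alone it changed by 0.17 in My5.LV (SD 0.58; -0.88 to 0.66 over single control wells) and by -0.53 in My5.CRBN (SD 0.45; -1.24 to 0.16), and with no normalizer these values were 1.82 and -1.79. No 5-day array of cells with AGO2 cDNA was analysed here, nor was an array of cells with the empty vector of the shRNA or of the AGO2 cDNA. AGO2 itself is not read by a miRNA array, so these arrays give no check of its silencing or its addition.

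Between the un-treated lines miR-720 was 2.27 fold higher in My5.CRBN than in My5.LV (1.18, control-well SD 0.22; 0.93 to 1.48 over single control wells). It was in place 15 from the highest of all assays, and all 20 miRNAs of like Ct lay below it, from -0.56 to 0.38 with a median of -0.08. The line that was higher changed with the condition. My5.CRBN was higher by 0.57 after 3 days of lenalidomide (SD 0.32), and was lower with sh72 (-1.13, SD 0.21), with AGO2 cDNA (-0.77, SD 0.52) and after 5 days of lenalidomide (-0.85, SD 0.43; 0.74 with the positive PCR control and 0.049 with no normalizer). With AGO2 cDNA and lenalidomide together the difference was -0.13 (SD 0.34), 0.10 with RNU6 alone and -1.73 with no normalizer. Over the 8 ways of normalizing, the difference at 3 days of lenalidomide was 0.18 (global mean) to 1.87 (none) and that with AGO2 cDNA was -1.49 (none) to -0.28 (global mean).

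Other assays on the plate that read small RNAs made outside the usual route are miR-320a, miR-320b and miR-484, whose making bypasses DROSHA, miR-1224-5p, a mirtron cut from a short intron, and miR-451a, whose hairpin AGO2 itself cuts. After 5 days of lenalidomide 0 of these 5 were at least 3 fold lower, beside 14.2% of all assays in My5.LV and 13.4% in My5.CRBN. With only 5 assays this count is near those shares. The log2 fold changes of the 5 ran from 0.05 to 0.46 in My5.LV and from -0.45 for miR-484 to 1.26 for miR-451a in My5.CRBN. Under sh72 they had a median of -1.65 in My5.LV, from -1.91 for miR-451a to -0.43 for miR-1224-5p, with 3 of 5 past 3 fold beside the 23.7% of all assays. Over the 8 ways of normalizing this count ran from 0, with the global mean, to 4. The median in My5.CRBN.sh72 was -1.01, from -1.39 for miR-484 to 0.11 for miR-1224-5p, with 0 of 5 past the limit (0 to 2 over the 8 ways) beside 12.9% of all assays. With AGO2 cDNA the medians were 0.13 and -0.31.

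The assays whose levels ran most like those of miR-720 over the 12 arrays were miR-639 (Pearson r 0.95), miR-302c-3p (0.95), miR-708-5p (0.94), miR-379-5p (0.94) and miR-643 (0.93), among 313 other assays under the cap on all arrays. The points of such a correlation share the arrays and the normalizer, and r over all 313 had a median of -0.10. Of the 20 miRNAs of like Ct, 19 had an r below 0, and the highest was 0.18. Over the 10 arrays without 5 days of lenalidomide, 4 of the 20 had an r below 0 and the highest was 0.50. The median over all 313 was then 0.11. All 5 assays of like pattern were of low level, with un-treated Ct from 28.2 to 30.4, whereas miR-720 had 16.6. Because these 5 were picked over arrays that include the 5-day ones, low values there are favoured by the choice and are no separate finding. After 5 days of lenalidomide miR-639 changed by -3.62 in My5.LV and -3.64 in My5.CRBN, and miR-379-5p, from the imprinted cluster of chromosome 14, by -3.67 and -3.85.

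Under sh72 none of the 5 like assays changed by 3 fold, beside 23.7% of all assays at least 3 fold lower in My5.LV and 12.9% in My5.CRBN. In My5.LV and My5.CRBN miR-639 changed by 0.10 and -0.22, miR-302c-3p by -0.18 and -0.69, and miR-708-5p by -0.44 and -0.90. In the same order miR-379-5p changed by 0.29 and 0.40, and miR-643 by -0.22 and -0.37. Leaving out the 5-day arrays lowered the r of all 5, and most for miR-639 and miR-379-5p. Over the 10 other arrays the r of miR-639 was 0.16 and that of miR-379-5p was 0.43, while miR-302c-3p kept 0.74 and miR-708-5p and miR-643 had 0.68. The assays most like miR-720 over those 10 arrays were miR-370-3p (r 0.79, un-treated Ct 24.7), miR-581 (0.75), miR-302c-3p, miR-643 and miR-708-5p, and none reached 0.9, a value that 10 assays passed over 12 arrays. miR-370-3p also had lower values after 5 days of lenalidomide, -2.42 in My5.LV and -2.77 in My5.CRBN, and miR-581 had -3.04 and -3.00.

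**Figure D4:**
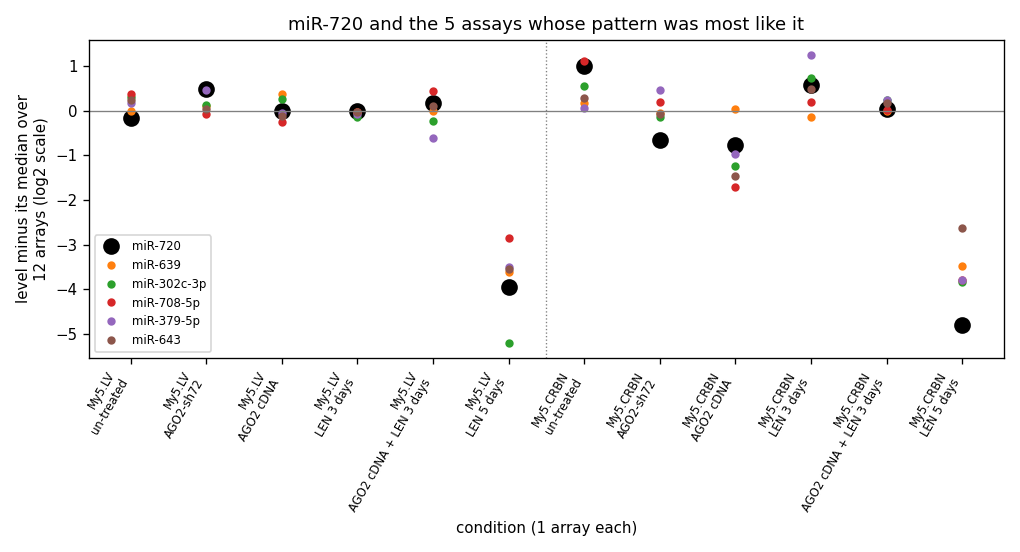
Levels of miR-720 (black) and of the 5 assays whose pattern over 12 arrays was most like it, each minus its own median over the 12 arrays (log2 scale), 1 array per place on the axis with My5.LV left and My5.CRBN right of the dotted line. All 6 are lowest on both 5-day lenalidomide (LEN) arrays. The choice itself favours this, since the 5 were picked over arrays that include those. Their order on the other 10 arrays differs.

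Of the 314 assays under the cap on all arrays, 17.5% were lower on both 5-day arrays than on each of the other 10. By the gap between those sets of arrays miR-720 (3.18) came after miR-300 (3.47) and miR-639 (3.33), and it was followed by miR-302c-3p (2.60) and miR-379-5p (2.53). No miRNA of like Ct was separated in this way (0 of 20). A gap of more than 1 was found for 17 assays, of which 3, miR-720 included, had an un-treated Ct below 24.

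Place on the plate was looked at as well, since the Ct values were deposited in plate order. miR-720 sits in well O14. After 5 days of lenalidomide the well above it (miR-551b-3p) changed by 2.48 in My5.LV and 0.36 in My5.CRBN, the well to the left (miR-708-3p) by -1.23 and 0.52, and the well to the right (miR-744-5p) by 0.89 and -0.75. The well below holds cel-miR-39, a worm miRNA for spiked samples. Its Ct was at the cap un-treated and 34.7 after 5 days in My5.LV (-0.25), and 32.95 un-treated and at the cap after 5 days in My5.CRBN (-4.14), so both values are bounds. Of the 4 neighbouring wells it was the only one at least 3 fold lower, in My5.CRBN.

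**Figure D5:**
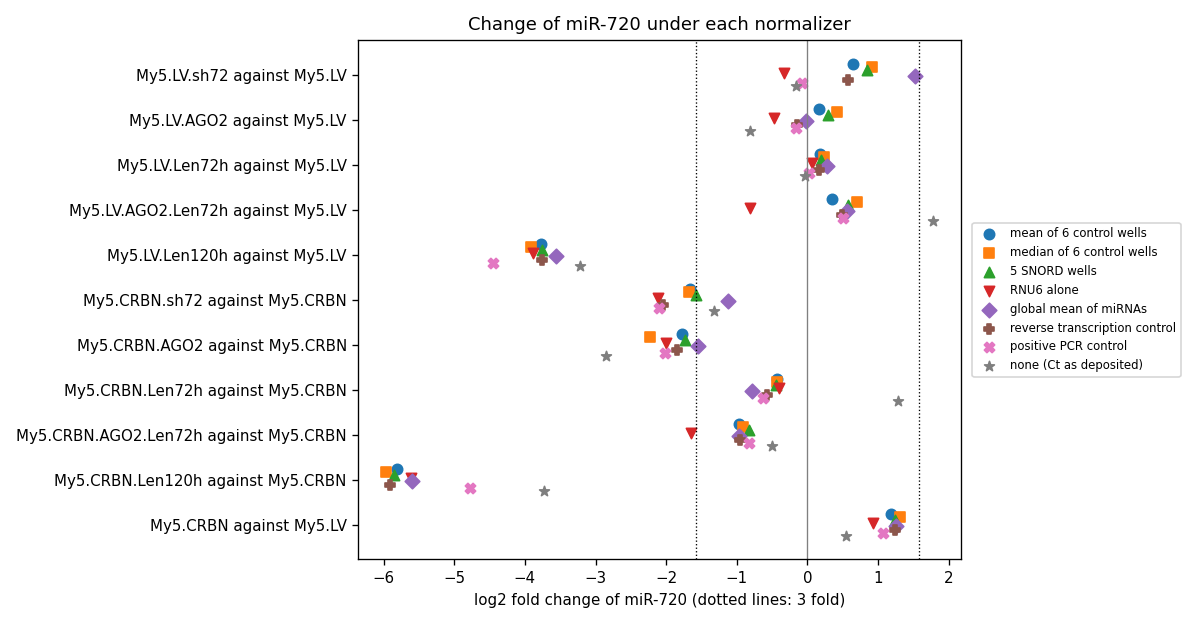
Log2 fold change of miR-720 in 11 comparisons of 1 array with 1 other under 8 ways of normalizing the Ct (symbols); dotted lines mark 3 fold. After 5 days of lenalidomide all 8 lie to the left of 3 fold (-4.44 to -3.22 in My5.LV, -5.97 to -3.72 in My5.CRBN), while in My5.LV.sh72 they fall on both sides of 0 (-0.33 to 1.52).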

How the data were processed

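As deposited by the authors, the table holds the threshold cycle (Ct, unit: cycles) of each of 384 wells on 12 miScript miRNA PCR Arrays, not normalized. Per the labels, RNA was isolated with the miRNeasy Mini kit, copied with the miScript II RT kit and quantified with SYBR Green, with 1 array per condition. The authors' deposited table of fold changes (ratios to un-treated My5.LV) was not used. Ct values were capped at 35, undetermined wells included, and normalized by subtracting the mean Ct of 6 small-RNA wells. A log2 fold change is the control array's normalized Ct less the test array's. Counts use the 3 fold cut-off of the study over 372 assays. The spread is the SD of the 6 control wells' log2 fold changes. Arrays have no sequencing depth: 324 to 367 miRNAs per array were under Ct 35, and precision is limited by the number of arrays.

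Assays of like Ct are the 20 nearest in un-treated Ct, without listed non-canonical assays. Assays of like pattern are the 5 with the highest Pearson r. Named miRNAs are these, the listed non-canonical ones, those of lowest Ct, those that fell most after 5 days and the neighbouring wells. miR-324-5p, miR-342-3p and miR-155-5p, and miR-300 and miR-191-3p where they are set beside miR-720 by Ct or by gap, were picked with their values in view. The members and lists were chosen with earlier results of these data known. Alternatives were other normalizers, a Ct cap of 32, 10 or 40 assays of like Ct, and other measures of likeness. The calculation was tested on simulated data with large set changes and small noise, which does not gauge the precision of the measured changes. Sequences are from RefSeq GRCh38.p14, in which 330 of 372 assays were matched. The software was Python 3.11.15, NumPy 2.4.6, pandas 2.3.3 and Matplotlib 3.10.9.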

Additional observations from a re-analysis of the deposited data

Results flagged for a closer look

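The change of miR-720 against un-treated cells had opposite signs in My5.LV and My5.CRBN in 4 conditions, each with 1 array per line, and none of these differences was tested. Under sh72 the values were 0.65 and -1.66, a difference of 2.32. With AGO2 cDNA they were 0.17 and -1.78, a difference of 1.95. After 3 days of lenalidomide they were 0.17 and -0.43, a difference of 0.61, and with AGO2 cDNA and lenalidomide 0.35 and -0.96, a difference of 1.31. The 4 share the un-treated array of each line, between which miR-720 differed by 1.18, so they are not separate observations. In My5.LV the values with AGO2 cDNA (control-well SD 0.41), with 3 days of lenalidomide (SD 0.18) and with both (SD 0.67) lay within the control-well SD. The signs also depend on the normalizer: over the 8 ways of normalizing 1 to 4 conditions had opposite signs, and with RNU6 alone it was 1, the 3 days of lenalidomide.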

How the results depend on the processing

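Of 119 values of the log2 fold changes of miR-720 under other normalizers, 80 moved by less than the control-well SD and 39 by more; no value past 3 fold changed sign. The falls after 5 days were past 3 fold under 8 of 8 ways of normalizing in all 4 comparisons that use a 5-day array, My5.CRBN.sh72 under 5 of 8 and My5.CRBN.AGO2 under 7 of 8. A Ct cap of 32 cannot move these values. The cause of the movements was not tested. No paired analysis was made. Each group, a condition in 1 line, has 1 array, and miR-720, chosen by these values, was not tested across the lines, which share their conditions. Leaving an array out leaves a group empty, and the number of arrays, not depth, limits the precision.

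Against un-treated My5.LV, My5.LV.sh72 was at 1.52 with the global mean as normalizer, -0.33 with RNU6, -0.074 with the positive PCR control and -0.16 with none. My5.LV.AGO2 was at -0.47 with RNU6 and -0.82 with none, My5.LV.Len72h at -0.039 with none, My5.LV.Len120h at -4.44 with the positive PCR control and -3.22 with none, and My5.LV.AGO2.Len72h at -0.82 with RNU6 and 1.78 with none. Against un-treated My5.CRBN, My5.CRBN.sh72 was at -1.12 with the global mean, -2.12 with RNU6, -2.04 with the reverse transcription control, -2.10 with the positive PCR control and -1.32 with none. My5.CRBN.AGO2 was at -2.85 with none, My5.CRBN.Len72h at -0.79 with the global mean and 1.29 with none, My5.CRBN.Len120h at -4.78 with the positive PCR control and -3.72 with none, and My5.CRBN.AGO2.Len72h at -1.65 with RNU6 and -0.50 with none. My5.CRBN against My5.LV was at 0.93 with RNU6 and 0.55 with none. AGO2 cDNA against sh72 was, in My5.LV, at -1.53 with the global mean, -0.14 with RNU6, -0.73 with the reverse transcription control and -0.085 with the positive PCR control, and in My5.CRBN at -0.55 with the median control well and -1.53 with none. Against 3 days of lenalidomide, 5 days was at -3.19 with none in My5.LV, and at -4.81 with the global mean, -4.15 with the positive PCR control and -5.01 with none in My5.CRBN, and added AGO2 cDNA was at -0.88 with RNU6 and 1.82 with none in My5.LV and at -1.24 and -1.79 in My5.CRBN. The gap between the 5-day arrays and the other 10 was 2.68 with the positive PCR control and 0.87 with none, where the 10 spanned 4.14. Of the 5 assays of like pattern, 2 were also among the 5 by Spearman correlation and 3 over the 10 arrays without 5 days. The normalization to the positive PCR control and the one to none were chosen after seeing the data.

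Counts over all assays moved by more than 1.5 times as follows. Lower with sh72 were 88 assays in My5.LV (12 with the global mean, 201 with RNU6) and 48 in My5.CRBN (8 and 104). Lower in My5.CRBN.AGO2 were 23 (14 with the global mean and 14 with a cap of 32). After 5 days 53 were lower in My5.LV (33 with a cap of 32), and in My5.CRBN 50 were lower (86 with a cap of 32) and 19 higher (29 with the global mean, 12 with a cap of 32). Between 3 and 5 days 44 were lower in My5.LV (26 with a cap of 32) and 82 in My5.CRBN (53 with the global mean). With AGO2 cDNA against sh72, 83 were higher in My5.LV (9 with the global mean, 136 with RNU6) and 38 in My5.CRBN (78 with RNU6).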
